A study of Homo sapiens with 36 samples.

Results

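The miR-378 family was taken as every miRNA whose name begins with hsa-miR-378 in the deposited tables, which gave 8 of 509 names: hsa-miR-378a-5p, hsa-miR-378b, hsa-miR-378c, hsa-miR-378d, hsa-miR-378g, hsa-miR-378h, hsa-miR-378i and hsa-miR-378j. Small RNA sequencing addressed the effect of chromosome gain on miRNAs in 7 aneuploid human cell lines, each set against cells without the added chromosome, with 36 libraries in 12 groups of 3. HCT116 is a colon carcinoma line with a modal number of 45 chromosomes, and RPE1 is a line from retinal pigment epithelium that was immortalised with hTERT and has a modal number of 46. An asterisk marks stable expression of the histone H2B tagged with GFP, and a name gives the gained chromosome, its copies and, after c, the clone.

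HCT116 5/4 (4 copies of chromosome 5) was compared with HCT116, and RPE1 5/3 12/3 (3 copies of chromosomes 5 and 12) with RPE1. These 4 groups carry no H2B-GFP. HCT116* 3/3 c11 (3 copies of chromosome 3), HCT116* 8/3 c7 (3 copies of chromosome 8) and HCT116 18/3 c2 (3 copies of chromosome 18) were all compared with the same 3 libraries of HCT116*. HCT116 18/3 c2 carries no H2B-GFP by its label, so its comparison also holds any difference between HCT116 and HCT116*. RPE1* 7/3 (3 copies of chromosome 7) was compared with the RPE1* libraries numbered 11 to 13, and RPE1* 21/3 (3 copies of chromosome 21) with those numbered 1 to 3. Within a cell type, each gain that a name gives is represented by a single line, so a difference between clones cannot be told apart from an effect of the gained chromosome. By the study's methods the extra chromosome 12 of RPE1 5/3 12/3 was gained spontaneously, and RPE1* 7/3 also gained other chromosomes that its name does not show.

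A miRNA guides the Argonaute protein to messenger RNAs that pair with its seed, the bases 2 to 8 of its 5′ end, and lowers their translation and stability. A miRNA hairpin yields a 5p and a 3p arm, which differ in sequence and so in targets. The hairpin of miR-378a lies in an intron of PPARGC1B, the gene of the coactivator PGC-1β, which acts on genes of mitochondrial and lipid metabolism, and miR-378a is best known from studies of energy metabolism in muscle, liver and fat.

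The mature sequences show which members could act on the same targets and which could share reads. They are printed 5′ to 3′ from RefSeq (GRCh38.p14), with the seed in capitals. A sequence was found for 7 of the 8 members. Also shown are hsa-miR-422a, a listed miRNA outside the family by name, and hsa-miR-378a-3p, the other arm of the miR-378a hairpin, whose level was not analysed here.
hsa-miR-378a-5p: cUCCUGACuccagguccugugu
hsa-miR-378c: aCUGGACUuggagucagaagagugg
hsa-miR-378i: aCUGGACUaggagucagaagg
hsa-miR-378h: aCUGGACUuggugucagaugg
hsa-miR-378b: aCUGGACUuggaggcagaa
hsa-miR-378g: aCUGGGCUuggagucagaag
hsa-miR-378j: aCUGGAUUuggagccagaa
hsa-miR-422a: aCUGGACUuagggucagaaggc
hsa-miR-378a-3p: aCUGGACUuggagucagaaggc

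A mature sequence was at hand for 416 of the 509 listed names, hsa-miR-378d not among them, and the seed CUGGACU was found in 5 of the 416, namely hsa-miR-378b, hsa-miR-378c, hsa-miR-378h, hsa-miR-378i and hsa-miR-422a. hsa-miR-378g and hsa-miR-378j each had a seed of their own, and hsa-miR-378a-5p had the unrelated seed UCCUGAC. hsa-miR-378c had its first 20 bases in common with hsa-miR-378a-3p. hsa-miR-378i differed from hsa-miR-378a-3p at position 9 alone over the 21 bases compared, counted from 1 at the 5′ end. Over 21 bases, hsa-miR-378c and hsa-miR-378i differed at positions 9 and 21. Reads of such near-identical miRNAs may have been split or shared between names when they were counted, so the separate levels of hsa-miR-378c and hsa-miR-378i are uncertain. Counts under these names may also hold reads of hsa-miR-378a-3p, whose hairpin lies on chromosome 5. For hsa-miR-378d such sharing could not be judged without its sequence. hsa-miR-378a-5p was identical to hsa-miR-378c at 3 of 22 positions and to no other sequence printed here at more than 4, so such sharing does not concern it.

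On GRCh37, MIR378A lies at chr5:149112388-149112453 on the plus strand, in an intron of PPARGC1B and on the same strand as that gene. MIR378H lies further along chromosome 5, at chr5:154209018-154209100 on the plus strand, in an intron of FAXDC2, which is transcribed from the opposite strand. The most abundant of the 8 members are encoded elsewhere. MIR378C lies at chr10:132760851-132760931 on the minus strand and overlaps no other annotated gene. MIR378I lies at chr22:42319226-42319301 on the minus strand, in an exon of TNFRSF13C outside the coding sequence and on the same strand. MIR378B lies at chr3:10371913-10371969 in an intron of ATP2B2, which is transcribed from the opposite strand. MIR378G lies at chr1:95211416-95211456 in an intron of the pseudogene SLC44A3-AS1, on the same strand. hsa-miR-378d has 2 hairpin genes, MIR378D1 at chr4:5925002-5925055 in an intron of C4orf50 and, by the RefSeq gene table, MIR378D2 on chromosome 8, and its reads cannot be assigned to one of them.

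Each table holds 1 result per miRNA: the mean normalised count over the 6 libraries of a line and its control, the log2 ratio of line to control (log2 fold change) and its standard error (SE), and a Wald p-value with its Benjamini-Hochberg adjustment. Values of single libraries and depth per library were not analysed here. The level in a line and in its control was therefore worked out from the mean and the fold change, and it carries no spread of its own. The 3 libraries of a group are biological replicates by the study's methods. A miRNA was tested in a line at a mean of at least 10, and it was called where the adjusted p-value was under 0.05 and the log2 fold change reached 0.6 in either direction. The members had 43 listed values over the 7 lines, of which 35 were tested.

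The family was far more abundant in the HCT116 tables than in the RPE1 tables, and the same 2 members led in both. The members together made up between 0.132% and 0.172% of the summed mean count in the 4 HCT116 tables, and between 0.00646% and 0.00965% in the 3 RPE1 tables. hsa-miR-378c and hsa-miR-378i gave 83.9% to 91.1% of the members' counts in each of the 7 tables. The tables were normalised separately, so these shares across tables are a description. The labelled cell types fitted their marker miRNAs: the 7 colon epithelium markers were all listed and took 0.202% to 0.316% of the summed mean in the HCT116 tables, 3 or 4 of them were listed and took 0.0192% to 0.0251% in the RPE1 tables, and the 2 pigment epithelium markers took 0.00033% to 0.00045% and 0.0380% to 0.145%.

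Within an HCT116 table the order of the mean levels was nearly fixed. hsa-miR-378c had mean normalised counts of 3542 to 6763 and hsa-miR-378i of 2776 to 7150, ranks 37 to 53 among the listed miRNAs. Their ratio lay between 0.936 and 1.28 in the HCT116 tables and between 0.747 and 1.26 in the RPE1 tables, so neither member was the higher one throughout. hsa-miR-378d came next with 687 to 895, and hsa-miR-378a-5p followed with 223 to 365. hsa-miR-378g (47.1 to 104), hsa-miR-378h (8.25 to 10.1), hsa-miR-378b (5.58 to 14.7) and hsa-miR-378j (3.07 to 6.30) were low. In the RPE1 tables hsa-miR-378c had 230 to 409, hsa-miR-378i 207 to 548, hsa-miR-378d 63.7 to 91.7 and hsa-miR-378a-5p 19.8 to 30.7. hsa-miR-378b, hsa-miR-378h and hsa-miR-378j were listed in 3 tables each, all of HCT116 lines.

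**Figure D1:**
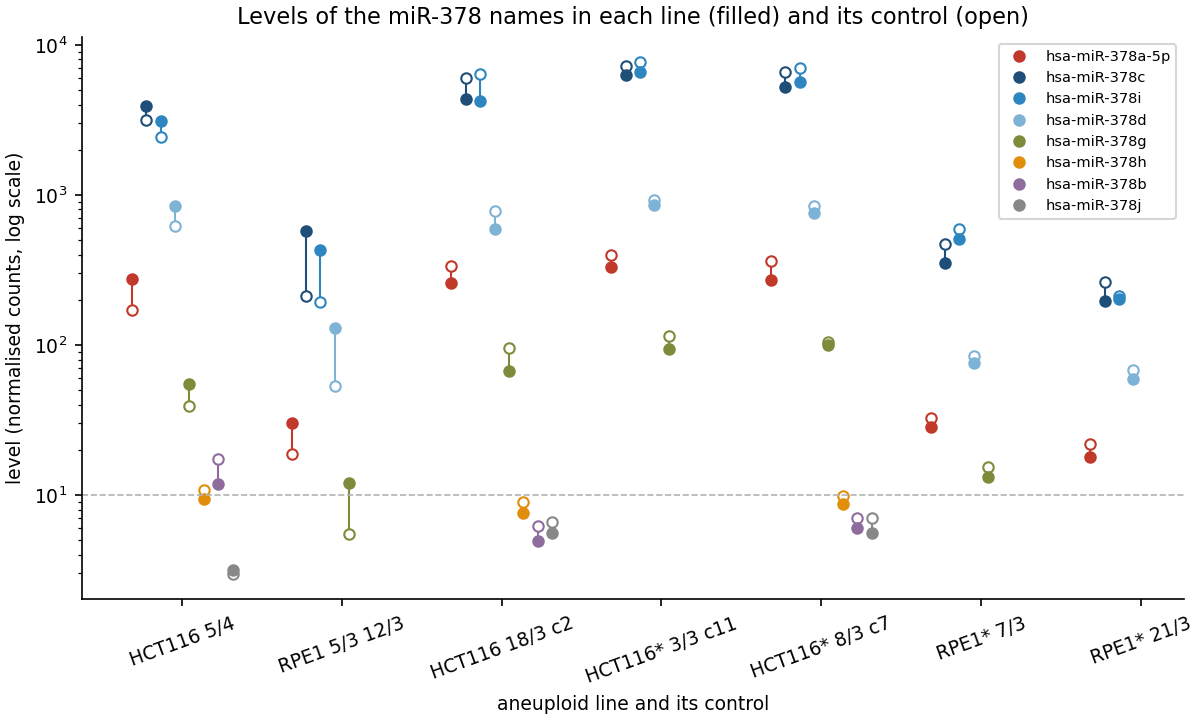
Levels of the miR-378 members, in normalised counts on a log axis, worked out for each line (filled circles) and its control (open circles), with a bar joining the pair; the dashed line marks the mean of 10 needed for a test. hsa-miR-378c and hsa-miR-378i lie highest in every table, and filled circles lie above open ones for the abundant members in HCT116 5/4 and RPE1 5/3 12/3 and below them in the other 5 lines.

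Within a line the members tended to lie on the same side of 0, above it in the 2 lines with extra chromosome 5 and below it in the 5 lines without. In HCT116 5/4 and RPE1 5/3 12/3, 9 of 11 tested values were above 0, with a median log2 fold change of 0.47, beside 51.9% of all 486 tested values. The 2 values below 0 were those of the low members hsa-miR-378b and hsa-miR-378h in HCT116 5/4. In the other 5 lines, 24 of 24 tested values were below 0, with a median of -0.27 and a range from -0.60 to -0.07, beside 51.3% of all 1330 tested values. After centring each table on the median of its miRNAs with a mean of at least 100, 23 of these 24 were below 0 and 1, hsa-miR-378i in RPE1* 21/3, was at 0 by construction, since it is itself the median there. The values are not independent, since members of a line share libraries, near-identical members may share reads, and 3 of the 5 lines share their control libraries. The 3 lines on the HCT116* control gave 15 of the 24 values, and RPE1* 7/3 and RPE1* 21/3, whose control libraries are separate, gave 9. Whether the 2 sets of lines differ was not tested, as chromosome 5 was gained in 1 line of each cell type. The controls of those 2 lines carry no H2B-GFP and the controls of the other 5 do, so extra chromosome 5 and the kind of control cannot be told apart here.

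Few of these shifts passed the threshold. Of the 35 tested values 4 were called, all of them higher, beside 315 of 1816 (17.3%) for all miRNAs over the 7 lines, and so the share of calls in the family was not above the background. Without the limit on the fold change 14 passed, 5 higher and 9 lower, beside 25.7% of all tested miRNAs. The tables take their p-values from the normal distribution. A t distribution was also used, on the residual degrees of freedom, 4 or, where replicates were paired, 2. None of the 35 was then called, with or without the limit on the fold change. With that limit, 26 of the 1816 values of all miRNAs were called. DESeq2 draws on other miRNAs for its errors, which these degrees of freedom leave out, so the t setting is strict. On 2 degrees of freedom hsa-miR-378c in RPE1 5/3 12/3 had an adjusted p = 0.401, beside 2.63e-07 by the Wald test. A loss of calls in the t setting therefore does not show that they are unsupported.

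**Figure D2:**
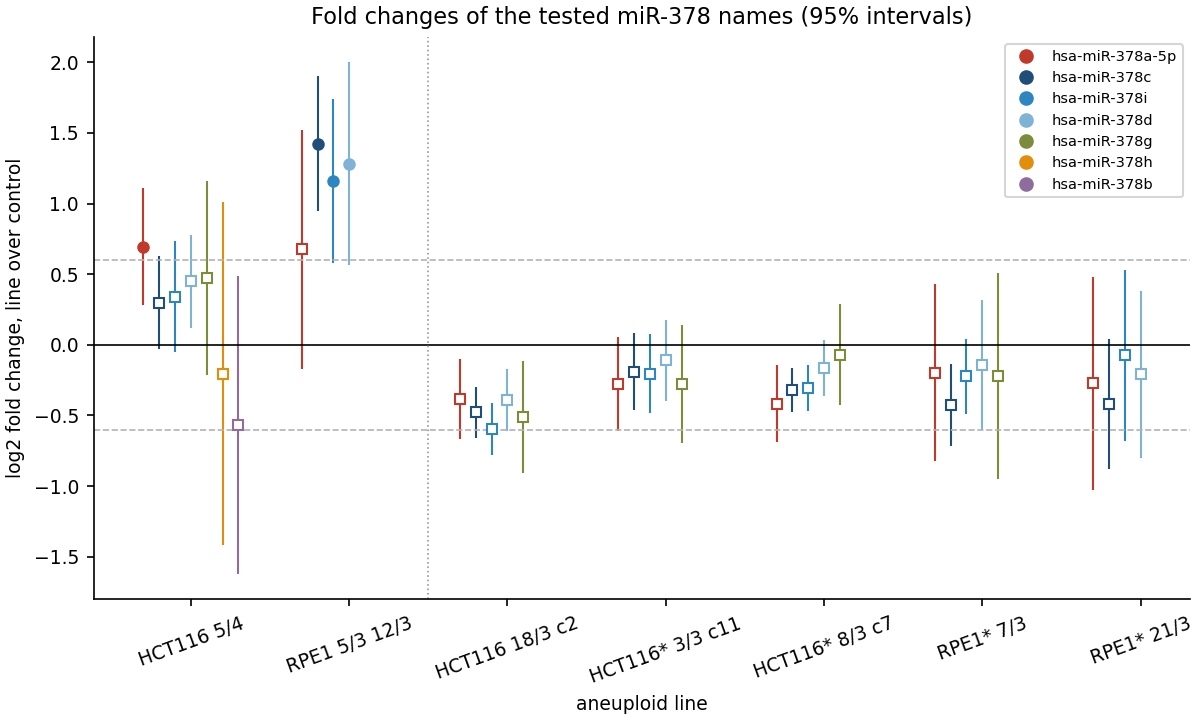
Log2 fold changes of the tested members in each line over its control, with 95% intervals from the listed SE; filled circles are calls, open squares are not, and dashed lines mark 0.6 in either direction. The lines with extra chromosome 5 stand left of the dotted line, where 9 of 11 values are above 0; right of it all 24 are below 0 and none is called.

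hsa-miR-378a-5p, the arm read from the PPARGC1B intron, was higher in HCT116 5/4. Its level was 170 in HCT116 and 276 in HCT116 5/4, a log2 fold change of 0.69 (SE 0.21, adjusted p = 0.00556 by the Wald test). In that line 69 of 249 tested miRNAs were called (27.7%), 46 of them higher (18.5%). The value lay just inside the limit, and relative to the median of miRNAs with a mean of at least 100, itself at 0.12 in this table, it was 0.58 and no longer called. In RPE1 5/3 12/3 the level was 18.8 in RPE1 and 30.0 in the line, a log2 fold change of 0.68 (SE 0.43, adjusted p = 0.271), about the same size as in HCT116 5/4 but at a lower level and with an interval that holds 0.

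In the 5 lines without extra chromosome 5, hsa-miR-378a-5p lay below its control each time and was not called. Its log2 fold change was -0.42 (SE 0.14, adjusted p = 0.0159) in HCT116* 8/3 c7, with levels of 364 and 272 in control and line. It was -0.38 (SE 0.14, adjusted p = 0.0337) in HCT116 18/3 c2, with levels of 335 and 257. Both were significantly lower without reaching the fold limit. HCT116* 3/3 c11 had -0.28 (SE 0.17), RPE1* 21/3 -0.27 (SE 0.38) and RPE1* 7/3 -0.20 (SE 0.32), none with an adjusted p-value under 0.05. The 95% intervals of the 5 lines overlapped.

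hsa-miR-378h, the other member encoded on chromosome 5, was near the limit of detection. Its level in HCT116 5/4 was 9.39 against 10.8 in HCT116, a log2 fold change of -0.20 with an SE of 0.62 (adjusted p = 0.867). This was its only tested value, at a mean of 10.1. It was listed at means of 8.25 in HCT116 18/3 c2 and 9.32 in HCT116* 8/3 c7, and it was not listed in the table of RPE1 5/3 12/3. With this error, a change of the size of the copy ratio of chromosome 5 could not be told from none.

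A gain of chromosome 5 raises the copies of both loci, which sets a value to hold the fold changes against. For 4 copies the log2 copy ratio is 1, and for 3 copies it is 0.58. The 95% interval of hsa-miR-378a-5p ran from 0.28 to 1.11 in HCT116 5/4 and from -0.17 to 1.52 in RPE1 5/3 12/3, so both held the copy ratio, and the second held 0 as well. The interval of hsa-miR-378h in HCT116 5/4, from -1.42 to 1.01, held the ratio at its upper edge. After centring on the median of miRNAs with a mean of at least 100, the HCT116 5/4 value of hsa-miR-378a-5p lay 0.42 under the ratio and its interval no longer held it.

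Other miRNAs of chromosome 5 changed by more. Of the 11 tested miRNAs with every annotated locus on chromosome 5, 8 were above 0 in HCT116 5/4 and 6 were called, all higher, with a median log2 fold change of 0.69, the value of hsa-miR-378a-5p itself. Of all 249 tested miRNAs in that line 128 were above 0 and 18.5% were called higher, and their median was 0.04. The others called were hsa-miR-1271-5p (6.60), hsa-miR-449a (3.01), hsa-miR-584-5p (2.68), hsa-miR-449c-5p (2.66) and hsa-miR-449b-5p (2.31), each above the copy ratio of 1 on the log2 scale. In RPE1 5/3 12/3, 9 of 11 were above 0 and 3 were called, all higher, with a median of 0.68. Of all 237 tested miRNAs in that line 124 were above 0 and 16.9% were called higher, with a median of 0.07, so 3 calls among 11 stood near the background. These were hsa-miR-146a-5p (3.47), hsa-miR-1271-5p (1.65) and hsa-miR-584-5p (1.16). hsa-miR-378a-5p was thus sixth of 11 by fold change in each line.

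**Figure D3:**
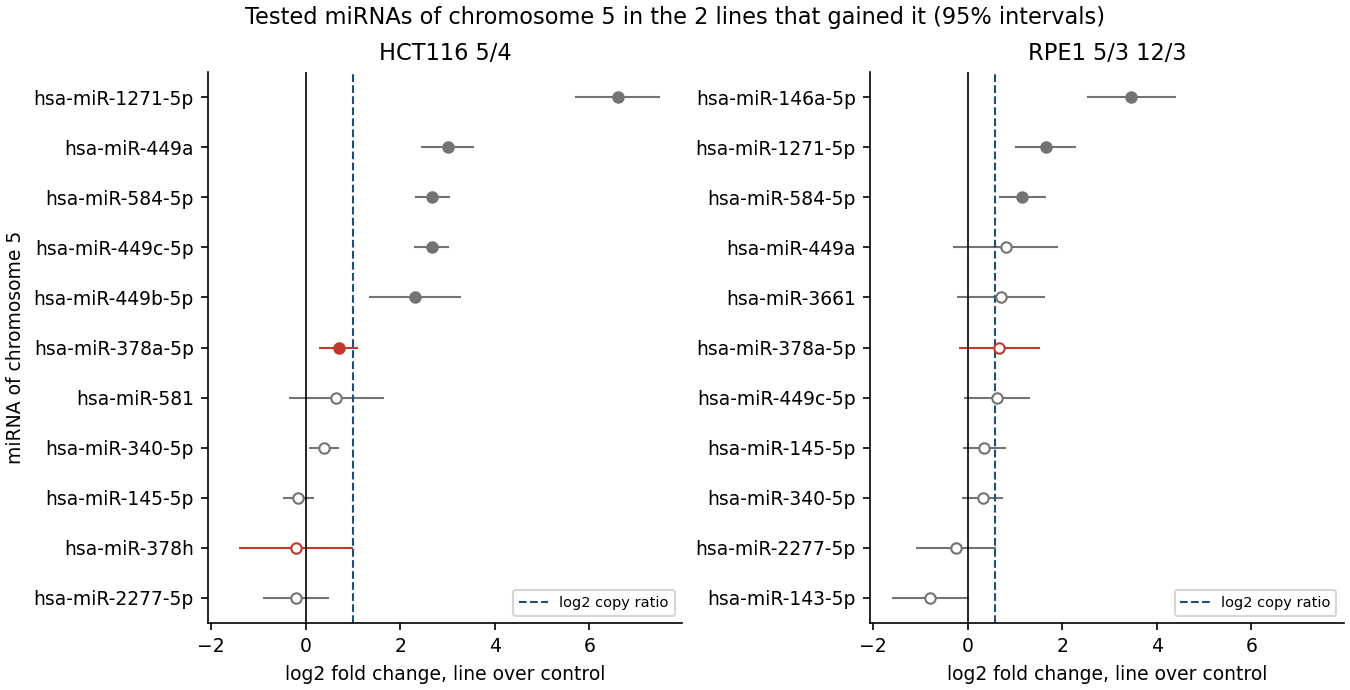
Log2 fold changes with 95% intervals of the 11 tested miRNAs of chromosome 5 in HCT116 5/4 (left) and RPE1 5/3 12/3 (right); filled symbols are calls, members of the miR-378 family are red, and the dashed line is the log2 copy ratio of 1 or 0.58. hsa-miR-378a-5p is the middle value of each panel, at 0.69 and 0.68, and hsa-miR-378h lies at -0.20 with an interval that reaches the ratio.

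hsa-miR-378c, encoded on chromosome 10, showed the largest increase of the family, and it was in RPE1 5/3 12/3. Its level was 213 in RPE1 and 572 in the line, a log2 fold change of 1.42 (SE 0.24, adjusted p = 2.63e-07). It was the one member whose change also passed when tested against 0.6 in place of 0. hsa-miR-378i, encoded on chromosome 22, went from 193 to 430 in the same line, a log2 fold change of 1.16 (SE 0.30, adjusted p = 0.000875). hsa-miR-378d went from 53.5 to 130, a log2 fold change of 1.28 (SE 0.37, adjusted p = 0.00312). So 3 of the 4 tested members were called higher in this line, where 72 of 237 tested miRNAs were called (30.4%), 40 of them higher (16.9%). Relative to the median of miRNAs with a mean of at least 100, itself at 0.11, the 3 values were 1.32, 1.05 and 1.17, and all 3 stayed called. Neither chromosome 10 nor chromosome 22 was gained in this line by its label. Counts of hsa-miR-378c and hsa-miR-378i may however hold reads of the near-identical hsa-miR-378a-3p, whose hairpin lies on the gained chromosome 5. Whether they did was not tested. The same sharing could not be judged for hsa-miR-378d, as its sequence was not at hand.

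In HCT116 5/4 the same members stood above 0 by less. hsa-miR-378c had levels of 3178 in HCT116 and 3907 in the line, a log2 fold change of 0.30 (SE 0.17, adjusted p = 0.205). hsa-miR-378i had 2449 and 3102, a log2 fold change of 0.34 (SE 0.20, adjusted p = 0.230). Only hsa-miR-378d passed the p-value limit among the 3, with levels of 618 and 843 and a log2 fold change of 0.45 (SE 0.17, adjusted p = 0.0340), and it did not reach 0.6. Centred on the median of the tested miRNAs or of those with a mean of at least 100, its adjusted p-value was 0.0582 or 0.148, past the limit. With hsa-miR-378a-5p, 2 of 7 tested members passed that limit as listed, both higher, beside 32.5% of all tested miRNAs in either direction. hsa-miR-378g stood at 0.47 (SE 0.35), and hsa-miR-378b at -0.56 (SE 0.54) on a mean of 14.7.

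The 2 lines with extra chromosome 5 were then compared directly, by a two-sided normal test of the difference of fold changes with the errors of both tables, adjusted over the 4 members tested in both. The increase of hsa-miR-378c was larger in RPE1 5/3 12/3 by 1.13 on the log2 scale (SE 0.30, adjusted p = 0.000552), and that of hsa-miR-378i by 0.82 (SE 0.36, adjusted p = 0.0445). For hsa-miR-378d the difference of 0.83 (SE 0.40) had an adjusted p = 0.0514. For hsa-miR-378a-5p it was -0.02 with a 95% interval from -0.96 to 0.92, which leaves room for a difference of that size in either direction. With a t distribution on 4 degrees of freedom, a strict setting, the adjusted p-values of hsa-miR-378c and hsa-miR-378i were 0.0757 and 0.143, and neither passed. The lines differ in cell type, in copies of chromosome 5 and in chromosome 12, and these cannot be told apart.

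Decreases of members passed the p-value limit most often in HCT116 18/3 c2. All 5 tested members there had an adjusted p-value under 0.05, between -0.60 and -0.38 on the log2 scale, and none was called, beside 18.2% of 280 tested miRNAs called and 16.1% lower at that p-value. hsa-miR-378i fell from 6429 in HCT116* to 4254, a log2 fold change of -0.60 (SE 0.09, adjusted p = 7.32e-09) that lay just outside the fold limit. hsa-miR-378c fell from 6054 to 4346, by 0.48 on the log2 scale (SE 0.09, adjusted p = 2.07e-06). hsa-miR-378g had -0.51 (SE 0.20) and hsa-miR-378d -0.39 (SE 0.11). hsa-miR-422a, which shares the seed of hsa-miR-378c and hsa-miR-378i, was called lower in this line at -0.75 (SE 0.21, adjusted p = 0.00189). HCT116 18/3 c2 carries no H2B-GFP and HCT116* does. A difference between HCT116 and HCT116* and an effect of chromosome 18 therefore cannot be told apart in these decreases.

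In HCT116* 8/3 c7, 3 of 5 tested members were significantly lower and none was called, beside 15.4% lower at that p-value and 15% called among 293 tested miRNAs. hsa-miR-378c fell from 6571 to 5264 (log2 fold change -0.32, SE 0.08, adjusted p = 0.000582) and hsa-miR-378i from 6985 to 5655 (log2 fold change -0.30, SE 0.08, adjusted p = 0.00156), and the third was hsa-miR-378a-5p. hsa-miR-378d, with 1 of its hairpin genes on the gained chromosome 8, stood at -0.17 (SE 0.10, adjusted p = 0.302). In HCT116* 3/3 c11, all 5 members lay between -0.28 and -0.11 with no adjusted p-value under 0.05, beside 17.2% of 279 tested miRNAs at that p-value and 9.68% called. hsa-miR-378c had levels of 7205 and 6321 there, and hsa-miR-378i of 7655 and 6645. The control levels worked out from the 3 tables that share the HCT116* libraries differed by at most 1.20 times for any member.

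In RPE1* 7/3, hsa-miR-378c was significantly lower, with levels of 469 and 349 (log2 fold change -0.43, SE 0.15, adjusted p = 0.0283; 0.0620 when centred on the tested miRNAs), and the other 4 tested members lay between -0.22 and -0.14. Of 247 tested miRNAs 10.5% were lower at that p-value and 13% were called, and no member was called. In RPE1* 21/3, 4 members lay between -0.42 and -0.07 and none had an adjusted p-value under 0.05, beside 9.52% of 231 tested miRNAs at that p-value and 8.66% called. hsa-miR-378c had levels of 263 and 197 there, with a log2 fold change of -0.42 and an SE of 0.23.

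Whether similar members moved together was asked through the difference of fold changes for every pair of tested members in a line, 73 pairs in all. No difference had an adjusted p-value under 0.05 by a two-sided normal test, the smallest being 0.955, and 1 had an unadjusted p under 0.05. That pair was hsa-miR-378a-5p and hsa-miR-378b in HCT116 5/4, which were 1.26 apart on the log2 scale (SE 0.58). The errors of 2 members were treated as independent although they come from the same libraries, and a p-value over the threshold does not show that members act alike. The median absolute difference was 0.15 over all pairs. hsa-miR-378c and hsa-miR-378i, the near-identical pair, were at most 0.35 apart, in RPE1* 21/3.

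hsa-miR-378a-5p, whose sequence and seed are its own, stood on opposite sides of hsa-miR-378c in the 2 lines with extra chromosome 5. Its log2 fold change was 0.40 above that of hsa-miR-378c in HCT116 5/4, with a 95% interval from -0.13 to 0.93. In RPE1 5/3 12/3 it was 0.75 below, with an interval of the difference from -1.72 to 0.22. In the other 5 lines the 2 were at most 0.23 apart. Both intervals held 0, so no difference was shown.

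**Figure D4:**
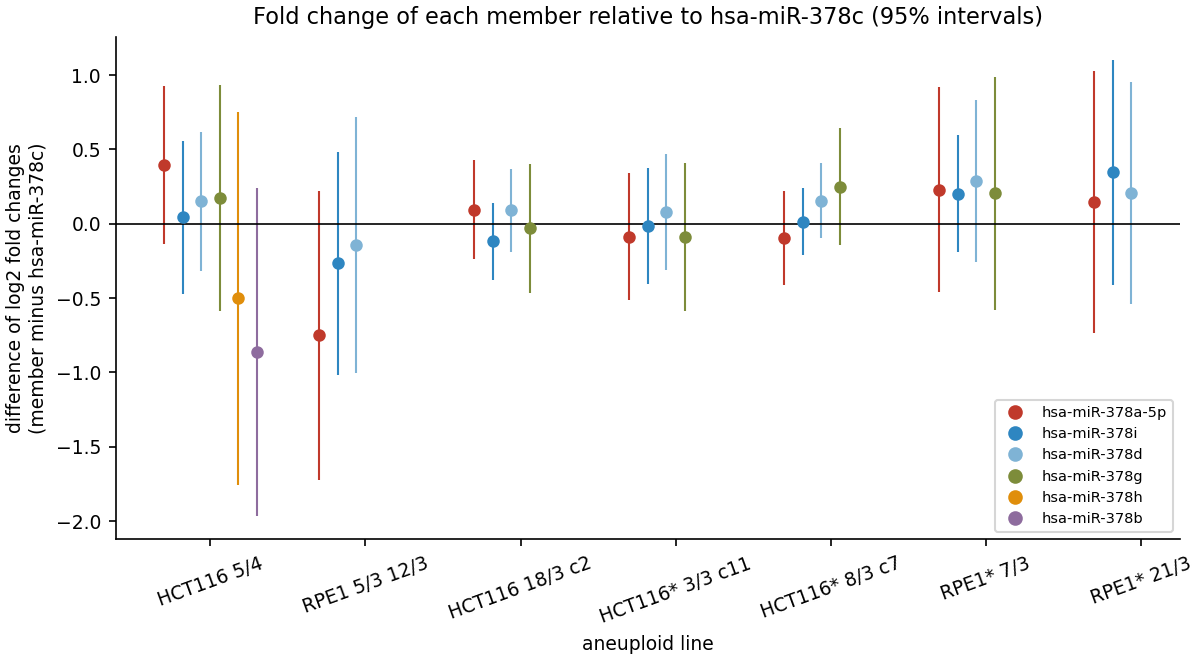
Difference between the log2 fold change of each tested member and that of hsa-miR-378c in the same line, with 95% intervals. Intervals of all members hold 0 in all 7 lines, and the members with the widest intervals are hsa-miR-378h and hsa-miR-378b in HCT116 5/4 and hsa-miR-378a-5p in RPE1 5/3 12/3.

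hsa-miR-422a was compared as a miRNA of the same seed and another name. It was tested in the 4 HCT116 lines, at means of 35.8 to 113. It lay below its control in all 4, with -0.75 in HCT116 18/3 c2, -0.34 (SE 0.20) in HCT116* 8/3 c7, -0.19 (SE 0.21) in HCT116* 3/3 c11 and -0.20 (SE 0.42) in HCT116 5/4. In HCT116 5/4 it thus stood below 0, where hsa-miR-378c and hsa-miR-378i stood above it, and its error spans both.

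The pattern over the 7 lines was also set against those of all 205 miRNAs listed in every table, by Pearson's r of the log2 fold changes as a description. The 7 points share control libraries in 3 lines, and 1 line with large values, RPE1 5/3 12/3, weighs on each r. The miRNAs most like hsa-miR-378c were hsa-miR-378d (r = 0.99, Spearman's rho = 0.89), hsa-miR-10b-5p (0.98 and 0.75) and hsa-miR-378i (0.96 and 0.82). hsa-miR-378d was closest to hsa-miR-378c, then hsa-miR-378i (r = 0.98) and hsa-miR-10b-5p (r = 0.95), and hsa-miR-378i was closest to hsa-miR-378d, hsa-miR-378c and hsa-miR-5096 (r = 0.95). So the 3 abundant members named one another among 205. hsa-miR-378c and hsa-miR-378i may share reads, so this likeness is not independent of how reads were counted. Whether hsa-miR-378d also shares reads with them could not be judged, as its sequence was not at hand. hsa-miR-378a-5p was most like hsa-miR-215 (r = 0.94, rho = 0.75), hsa-miR-1262 (0.92 and 0.36) and hsa-miR-194-5p (0.92 and 0.46). Among members its r was 0.89 with hsa-miR-378d, at place 6, 0.88 with hsa-miR-378i, at place 9 (rho = 0.82), and 0.86 with hsa-miR-378c, at place 11. Without RPE1 5/3 12/3, r was 0.96 between hsa-miR-378c and hsa-miR-378d, 0.85 between hsa-miR-378c and hsa-miR-378i, and 0.92 between hsa-miR-378c and hsa-miR-378a-5p, and none of the 3 closest miRNAs of any of the 4 members kept its place among the first 3.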

How the data were processed

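Total RNA with small RNAs was sequenced from cultures of 12 groups. The authors removed adapters with cutadapt, mapped reads to hg19, counted mature miRNAs with mirdeep2 and compared each line with its control in DESeq2, with the paired replicate number as a further term in 3 lines (RPE1 5/3 12/3, HCT116 5/4, RPE1* 21/3) because of sequencing batches. Near-identical miRNAs may share reads in such counts. The deposited mean is a signal, the average over 6 libraries of counts after division by size factors. The deposited log2 fold change has a standard error, a score (their ratio), a p-value and an adjusted p-value. Score, p-value and adjustment were recomputed and matched the listed columns. Columns of single libraries were not analysed here, so depth is unknown and these deposited comparisons were used as they stand.

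Tested values had a mean of at least 10. In the tables of HCT116 18/3 c2 and HCT116* 8/3 c7, SEs of hsa-miR-378b, hsa-miR-378h and hsa-miR-378j were smaller than counting error gives, and no tested member had such an SE. Among all listed miRNAs such SEs numbered 143 (14 tested) and 164 (23 tested) there, 155 in RPE1* 7/3 (3 tested) and 38 in RPE1* 21/3 (1 tested). HCT116 5/4 had 4 (3 tested), and RPE1 5/3 12/3 and HCT116* 3/3 c11 had 0. SEs and fold changes may thus not be alike in scale between tables, which was not tested. Group levels assume equal group sizes. Intervals are 1.96 SE. The members and lists were chosen with earlier results of these data known. Named were the members, listed miRNAs of the same seed, the 3 most alike miRNAs, and called miRNAs of chromosome 5. Loci are from GENCODE on GRCh37. The calling steps were tested on simulated data. Python 3.11.15, numpy 2.4.6, pandas 2.3.3 and scipy 1.17.1 were used.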

Additional observations from a re-analysis of the deposited data

Results flagged for a closer look

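Of the members tested in both lines with extra chromosome 5, hsa-miR-378c and hsa-miR-378i differed between them by a two-sided normal test of the difference itself. The log2 fold change of hsa-miR-378c in RPE1 5/3 12/3 exceeded that in HCT116 5/4 by 1.13, and that of hsa-miR-378i by 0.82. Neither passed in the strict setting of a t distribution (adjusted p = 0.0757 and 0.143), and hsa-miR-378i did not pass after centring on the tested miRNAs (adjusted p = 0.0552). Cell type, copies of chromosome 5 and the extra chromosome 12 differ between the lines and cannot be told apart.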

How the results depend on the processing

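Of the member values over the 7 lines 4 were called. The number stayed at 4 with no minimum mean and with p-values adjusted over tested miRNAs alone, and was 3 at a minimum mean of 100. It was 14 with no limit on the fold change, 1 when fold changes were tested against 0.6 in place of 0, and 0 with a t distribution, with or without that limit (the latter chosen after seeing the data). With the limit and the t distribution 26 values of all miRNAs were called, against 315 with the normal distribution. Centring each table on the median of miRNAs with a mean of at least 100 moved hsa-miR-378i in RPE1* 21/3 to 0, took hsa-miR-378a-5p in HCT116 5/4 to 0.58, under the fold limit, and took hsa-miR-378i in HCT116 18/3 c2 to -0.64, past it. Centring on the tested miRNAs ended significance for hsa-miR-378c in RPE1* 7/3 (adjusted p = 0.0620), and either centring did so for hsa-miR-378d in HCT116 5/4 (0.0582 and 0.148), neither of them called. Minus the log2 copy ratio, hsa-miR-378a-5p was then -0.42 in HCT116 5/4 and -0.019 in RPE1 5/3 12/3, where it had been 0.09, and hsa-miR-378h was -1.32 (-1.24 when centred on all tested miRNAs). No pair of members differed under a t distribution either.

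Alternatives for the difference of HCT116 5/4 from RPE1 5/3 12/3 were chosen after seeing the data. With a t distribution, a strict setting, hsa-miR-378c (1.13) and hsa-miR-378i (0.82) no longer passed. Centred on all tested miRNAs, hsa-miR-378i was 0.79 and did not pass, and centred on miRNAs with a mean of at least 100, hsa-miR-378d was 0.84 and passed. Of the 3 most alike miRNAs, Spearman's rho kept 0 for hsa-miR-378a-5p and 1 each for hsa-miR-378c, hsa-miR-378d and hsa-miR-378i. Without HCT116 18/3 c2, hsa-miR-378a-5p kept 1. Without RPE1 5/3 12/3, chosen after seeing the data, each of the 4 kept 0. The causes were not tested.

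No paired analysis was possible because the tables hold 1 result per line and no values of single libraries. For the same reason count models and leaving out replicates were not run. Low means limit hsa-miR-378h, hsa-miR-378b and hsa-miR-378j.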
